A study of Rattus norvegicus with 6 samples.

Results

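The Fc gamma receptors of rupture-prone intracranial aneurysms (IAs) of rats were described in bulk RNA sequencing data. The genes were Fcgr1a, Fcgr2a, Fcgr2b, Fcgr3a and Fcgrt, taken by gene symbol, and 4 of these 5 were matched among the 22081 genes of the table. Fcgr2a was not analysed here. A further 2 rows, LOC100911825 and LOC108348047, carry the description of a low affinity Fc gamma receptor III or of a gene like it, and their values are given beside those of the 4 genes, separately counted. The tissues were rupture-prone IAs, harvested unruptured from the anterior or posterior communicating artery, and the remaining circle of Willis (CoW) of the same animals, with 3 libraries of each. All libraries came from 3 female Sprague Dawley (SD) rats, purchased at 10 weeks of age. Every rat had undergone bilateral ovariectomy and ligation of the left carotid, right external carotid, right pterygopalatine and left renal arteries. Every rat then ate chow with 8% salt (sodium chloride) and, at 0.12%, the lysyl oxidase inhibitor 3-aminopropionitrile, up to day 63 after surgery by the RNA methods and the labels, whereas another passage of the methods names an earlier day. The CoW is therefore an artery of an operated and hypertensive animal and not of an untreated rat, and each tissue of an animal is a single library.

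Fc gamma receptors sit on leukocytes and bind the constant part of IgG, so that a cell can recognise what antibodies have coated. Fcgr1a encodes the high affinity receptor of monocytes and macrophages, and Fcgr3a and its relatives encode low affinity activating receptors. The activating receptors signal through the common gamma chain, encoded by Fcer1g, whose immunoreceptor tyrosine-based activation motif is phosphorylated by Src family kinases and then recruits Syk. Fcgr2b encodes the inhibitory receptor, which carries an inhibitory motif in its own tail and recruits the phosphatase SHIP1. Fcgrt encodes the heavy chain of the neonatal Fc receptor (FcRn), an MHC class I-like protein of endothelium and macrophages that pairs with beta-2-microglobulin and returns IgG and albumin from endosomes to the blood. In arterial walls these genes are best known from macrophages and, for Fcgrt, also from endothelium.

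On the rat genome Rnor6, Fcgr1a (ENSRNOG00000021199) spans bases 198430530 to 198458041 of the minus strand of chromosome 2, and Fcgrt (ENSRNOG00000020583) spans bases 101086877 to 101095594 of the minus strand of chromosome 1. The other 4 rows are on chromosome 13. Fcgr2b (ENSRNOG00000046452) spans bases 89327794 to 89433815 of the minus strand, and Fcgr3a (ENSRNOG00000024382) lies whole within that span, at 89385859 to 89396051 of the plus strand. LOC100911825 (ENSRNOG00000046663) spans 91146876 to 91229066 of the minus strand, and LOC108348047 (ENSRNOG00000049422) lies whole within it, at 91168973 to 91198036 of the same strand. The kit marked strand. Whether the counting used it, and how reads that match several copies were placed, are not given in the sources used here. Reads of the rows on chromosome 13 can therefore have been divided between neighbours and between copies, and each of these rows is uncertain as the measure of a single gene.

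The RefSeq promoter table of build GRCr8 matched 2 of the 4 genes, Fcgr3a and Fcgrt. They are shown because they are the genes of the set that this table matched. Fcgr3a was the member above its own CoW in all 3 animals, and Fcgrt had by far the most transcript and no common direction. Each line gives the 250 bases before the start of the gene, 5′ to 3′ on the strand of the gene, for chr13:85782386-85782635 (plus strand) and chr1:104720027-104720276 (minus strand), and capitals mark the motif matches.
Fcgr3a: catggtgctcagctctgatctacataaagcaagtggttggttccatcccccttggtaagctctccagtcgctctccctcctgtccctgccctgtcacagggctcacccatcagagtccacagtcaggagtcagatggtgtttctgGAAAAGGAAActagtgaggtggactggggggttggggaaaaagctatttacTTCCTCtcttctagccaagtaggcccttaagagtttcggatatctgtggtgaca
Fcgrt: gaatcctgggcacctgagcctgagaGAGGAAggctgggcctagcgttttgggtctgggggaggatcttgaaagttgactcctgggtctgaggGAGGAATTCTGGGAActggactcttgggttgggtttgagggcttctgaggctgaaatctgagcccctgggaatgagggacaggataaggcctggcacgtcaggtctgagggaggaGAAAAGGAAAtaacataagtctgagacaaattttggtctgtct

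In these windows 5 motifs were searched on both strands. They were the PU.1 box GAGGAA, the GAS element TTCNNNGAA, the ISRE core of interferon regulatory factors, which is GAAA, any 2 bases and GAAA, the TATA box TATAAA and the GC box GGGCGG. Positions are those of the first base of a match, counted back from the start of the gene. Fcgr3a held a PU.1 box on the opposite strand at -54 and an ISRE core at -105. Fcgrt held PU.1 boxes at -225 and -158, a GAS element at -152, which adjoins the PU.1 box before it without overlapping, and an ISRE core at -43. Neither window held a TATA box or a GC box. Over all 33469 RefSeq promoters, in windows of the same length, 23.3% held the PU.1 box, 7.67% the GAS element, 3.41% the ISRE core, 12.9% the TATA box and 30.5% the GC box. The GC content was 51.6% for Fcgr3a and 53.2% for Fcgrt, against a median of 51.2% over all promoters. A match of letters is a description and does not show that a factor binds there.

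The 6 libraries held 65823027 to 70705938 counts, and mitochondrially encoded genes took 4.365 to 8.81% of the counts in lesions and 9.077 to 10.649% in CoW. Of the libraries, 2 stood apart. The lesion of animal 2 had a summed level of 17319 TPM (a level scaled by gene length to the same total in each library) over 9 brain genes such as Mbp and Ttr, against 563 and 963 TPM in the lesions of animals 1 and 3 and 326 to 552 TPM in CoW. Ttr alone made up 13029 TPM of that sum in the lesion of animal 2, and Mbp 2276 TPM. Within animal 2 the neuronal genes Snap25 and Syt1 were lower in the lesion (log2 ratios -0.37 and -1.25), while the rest of the brain list was higher. The lesion of animal 3 had 3113 TPM over 7 smooth muscle genes, against 14791 TPM in its own CoW. The lesions of animals 1 and 2 had 6649 and 8753 TPM, and their CoW had 8918 and 5049 TPM, so the CoW also differed widely. Smooth muscle and endothelial markers of an artery were detected in every library, with none at 0. Values are given for each animal, and those without animal 2 are given as well for the receptor rows, the balance and the medians of the pathway lists. In bulk tissue fewer cells of a type and less RNA per cell cannot be told apart.

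Fcgr1a, the high affinity receptor, had 24.4, 63.9 and 64.3 TPM in the lesions of animals 1, 2 and 3, against 26.5, 21.2 and 29.9 TPM in their CoW. The lesions of animals 2 and 3 were above every CoW, and that of animal 1 lay within the CoW range. Within an animal, the lesion over CoW ratio of normalised counts was 2.89-fold in animal 2 and 2.16-fold in animal 3, and in animal 1 the normalised levels were equal. The mean log2 ratio of 0.88 (SE 0.46, n = 3 animals) did not pass the quasi-likelihood test of edgeR, fitted with animal as a blocking term (adjusted p = 0.239), nor DESeq2 (adjusted p = 0.0692). Without animal 2 it was 0.55, and without animal 1, 1.35.

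Fcgr2b, the inhibitory receptor, had 13.6, 25.7 and 26.7 TPM in the lesions and 17.1, 13.4 and 20.6 TPM in the CoW of animals 1, 2 and 3. Its order over the lesions was that of Fcgr1a, with the lesion of animal 1 low and those of animals 2 and 3 near each other, and the ranges of lesions and CoW overlapped. The ratio within an animal was 0.868-fold, 1.84-fold and 1.3-fold. The mean log2 ratio was 0.35 (SE 0.31, n = 3; edgeR adjusted p = 0.421, DESeq2 adjusted p = 0.433), and it was 0.08 without animal 2.

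Fcgr3a, a low affinity activating receptor, had 41, 27.8 and 43.9 TPM in lesions and 34.5, 13.8 and 32.6 TPM in CoW. Animal 2 had the lowest value of both tissues. The lesion was above its own CoW in each animal, by 1.29-fold, 1.94-fold and 1.35-fold, although the lesion of animal 2 was below the CoW of animals 1 and 3. The mean log2 ratio of 0.58 (SE 0.18, n = 3) had an adjusted p of 0.208 in edgeR with the animal as a block and of 0.0773 in DESeq2, and it was 0.40 without animal 2. Without the block, the edgeR adjusted p was 0.529.

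The rows annotated as receptor III had the largest differences among the 6 receptor rows. LOC108348047 had 49.6, 99.1 and 252 TPM in the lesions of animals 1, 2 and 3, against 29.6, 11.7 and 26.9 TPM in CoW. LOC100911825 had 44.2, 82.1 and 202 TPM in lesions, against 34.1, 15.9 and 31.3 TPM in CoW. In both rows each lesion was above all 3 CoW, with the lesion of animal 1 nearest to them and that of animal 3 highest.

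LOC108348047 was higher in lesions by 1.82-fold, 8.09-fold and 9.39-fold in animals 1, 2 and 3. Its mean log2 ratio was 2.37 (SE 0.75, n = 3), which missed the threshold of edgeR (adjusted p = 0.183) and passed that of DESeq2 (adjusted p = 2.1e-05). LOC100911825 was higher by 1.41-fold, 4.95-fold and 6.48-fold, with a mean log2 ratio of 1.83 (SE 0.68, n = 3; edgeR adjusted p = 0.199, DESeq2 adjusted p = 0.00066). Without animal 2 the mean log2 ratios were 2.05 for LOC108348047 and 1.59 for LOC100911825. Since these rows overlap on the same strand, their values are not 2 independent measurements.

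**Figure D1:**
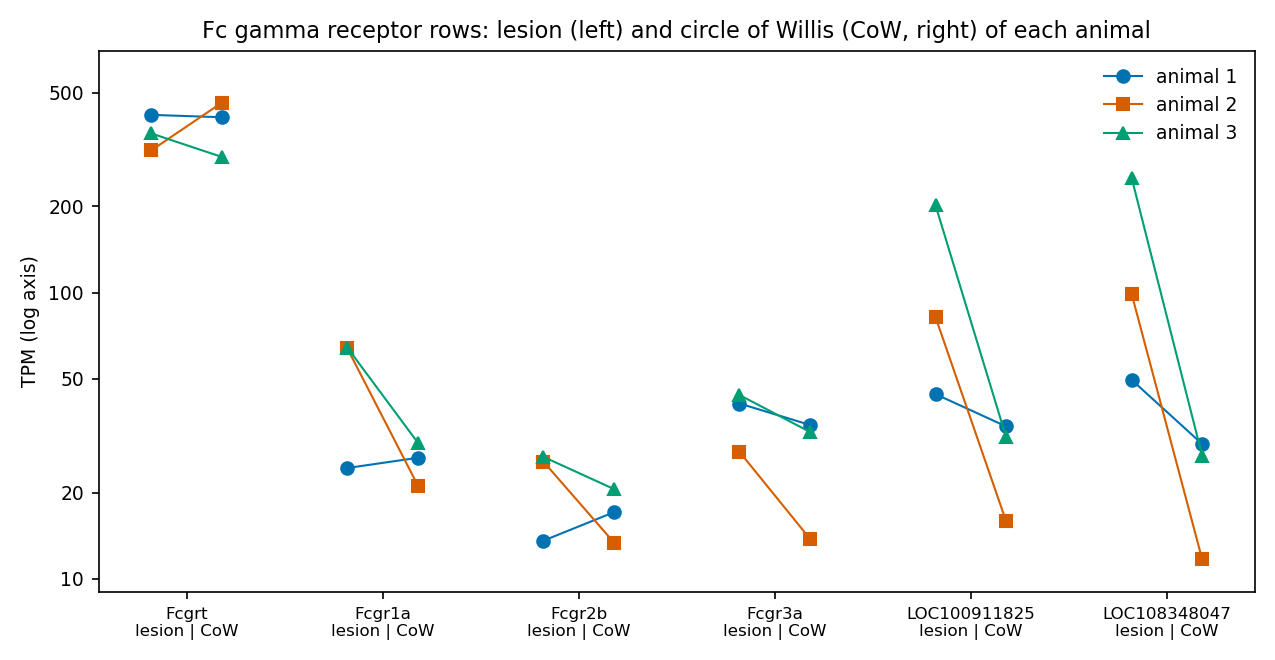
TPM (log axis) of the 4 Fc gamma receptor genes and the 2 rows annotated as receptor III, with the lesion left and the CoW right for each animal and a line joining the libraries of an animal. LOC100911825 and LOC108348047 have every lesion above every CoW, while Fcgrt has the highest TPM in each library and lines that cross.

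Fcgrt, the FcRn heavy chain, had 418, 314 and 360 TPM in the lesions of animals 1, 2 and 3 and 410, 461 and 298 TPM in their CoW. The ranges overlapped, and the lesion of animal 2 alone was below its own CoW. The ratio was 1.11-fold, 0.651-fold and 1.21-fold, and the mean log2 ratio was -0.07 (SE 0.28, n = 3; edgeR adjusted p = 0.891, DESeq2 adjusted p = 0.956). Without animal 2 the mean log2 ratio was 0.21, so the sign of this value rests on that animal.

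By mean TPM, Fcgrt had the highest level of the 6 rows in CoW at 390 ± 83.5 TPM (SD, n = 3), which placed it above 98.1% of the genes tested. Next in CoW were LOC100911825 at 27.1 ± 9.8, Fcgr3a at 26.9 ± 11.5, Fcgr1a at 25.9 ± 4.4, LOC108348047 at 22.7 ± 9.63 and Fcgr2b at 17 ± 3.64 TPM. Each of these 5 rows differed from the next by less than the larger of their SDs. In lesions Fcgrt came first at 364 ± 52.2 TPM, followed by LOC108348047 at 134 ± 106 and LOC100911825 at 109 ± 82.4 TPM. Fcgr1a followed at 50.9 ± 22.9, Fcgr3a at 37.6 ± 8.58 and Fcgr2b at 22 ± 7.3 TPM. Below Fcgrt, each row in the lesion order again differed from the next by less than the larger of their SDs, except Fcgr3a and Fcgr2b.

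Counted over rules, 0 of the 4 genes and 0 of the 2 receptor III rows passed edgeR's adjusted threshold of 0.05 in either direction. Over the 15367 genes tested that test also called 0% higher and 0% lower. At an unadjusted edgeR p under 0.05, Fcgr1a, Fcgr3a and both receptor III rows were higher and 0 rows were lower, where 8.63% of all genes were higher and 12% lower. DESeq2 called 0 of the 4 genes and 2 of the 2 receptor III rows higher and 0 lower (5.38% of all genes higher, 6.37% lower). Limma-voom called 0 rows, and it also called 0 of all genes in either direction. Over 1.5-fold in all 3 animals, the rule of the study for an over-expressed gene, LOC108348047 was higher, 0 of the 4 genes were, and 0 rows were lower (2.75% of all genes higher, 5.51% lower). Lesions and CoW did not overlap for 0 of the 4 genes and for 2 of the 2 receptor III rows, all of them higher (10.3% of all genes higher, 11.6% lower). The lesion was above its own CoW in all 3 animals for Fcgr3a and for both receptor III rows (22.6% of all genes above, 27% below). Without animal 1, Fcgr1a and both receptor III rows were over 1.5-fold higher in the animals left, as were 1646 of the 15367 genes, against 423 with all 3 animals.

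**Figure D2:**
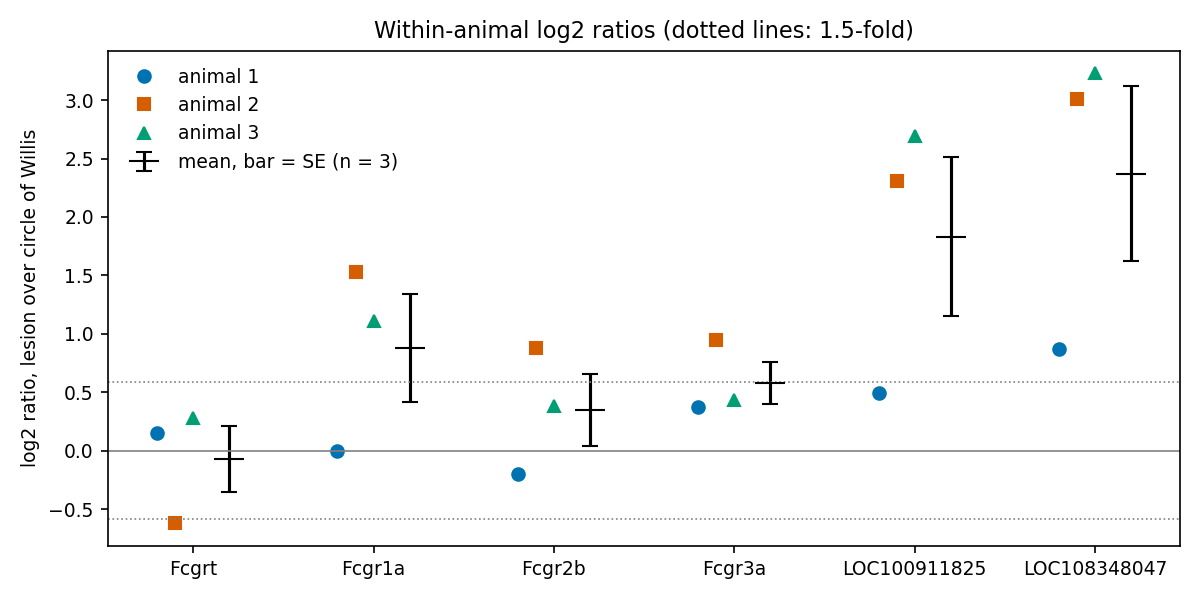
Log2 ratio of lesion over CoW within each animal (vertical axis) for the 6 receptor rows, with the mean and a bar of 1 SE (n = 3 animals), and dotted lines at 1.5-fold in either direction. The ratios of animal 1 lie between -0.20 and 0.87, and LOC108348047 is the row whose 3 points are all above the upper dotted line.

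The balance of the inhibitory over the activating low affinity receptors was taken as the TPM of Fcgr2b over that of Fcgr3a, since Fcgr2a was not analysed here. It was 0.332, 0.924 and 0.609 in the lesions of animals 1, 2 and 3, against 0.494, 0.971 and 0.634 in their CoW. Each lesion was below its own CoW, by 0.57, 0.07 and 0.06 on the log2 scale, and the ranges overlapped. The mean log2 difference was -0.23 (SE 0.17), and the two-sided exact permutation test within animals gave p = 0.25, the smallest value that 3 animals allow. Without animal 2 the mean was -0.32, and without animal 1 it was -0.06.

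With LOC100911825 added to Fcgr3a, the ratio was 0.16, 0.234 and 0.109 in lesions and 0.249, 0.451 and 0.324 in CoW. That row was added after its higher lesion values were seen, so the lower ratios in lesions follow from its choice and are a description. Of the summed TPM of Fcgr1a, Fcgr2b, Fcgr3a and LOC100911825, Fcgr2b made up 11.1, 12.9 and 7.94% in lesions and 15.2, 20.8 and 18.1% in CoW. LOC100911825 made up 35.9, 41.1 and 59.9% in lesions and 30.4, 24.8 and 27.3% in CoW. Shares of a single sum are tied together, so a larger share of LOC100911825 lowers the others by construction, and the TPM of Fcgr2b itself overlapped between the tissues and was higher in the lesions of animals 2 and 3 than in their CoW. Fcgr1a held 19.8, 32 and 19.1% in lesions and 23.7, 33 and 26.1% in CoW, and Fcgr3a held 33.3, 13.9 and 13% in lesions and 30.8, 21.4 and 28.5% in CoW.

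**Figure D3:**
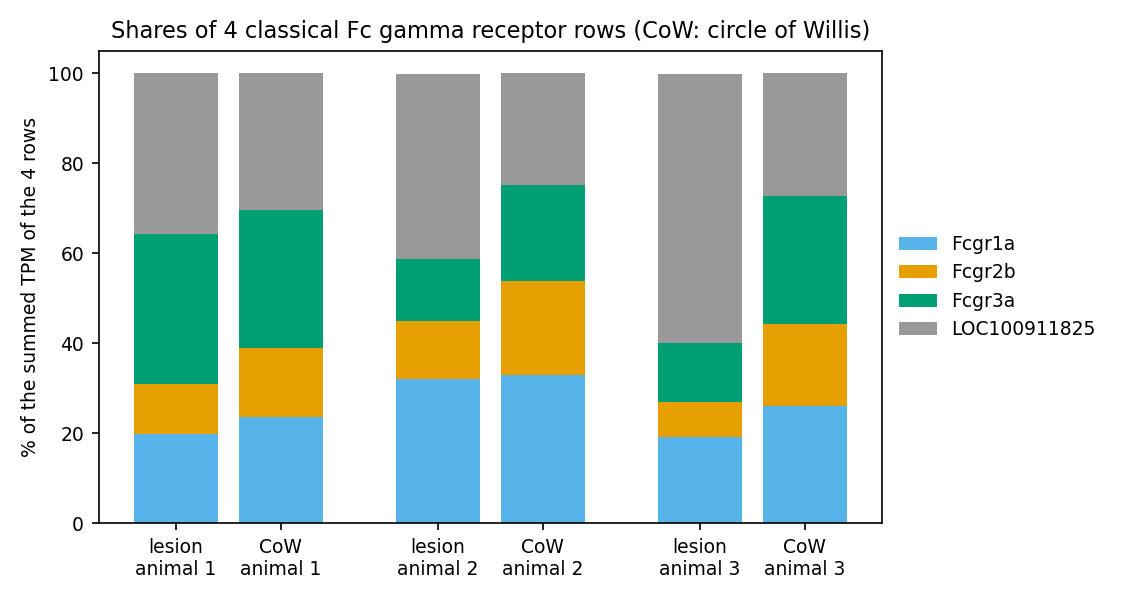
Share (%) of the summed TPM of 4 receptor rows in each library, lesion left of CoW for each animal. The share of LOC100911825 is between 35.9 and 59.9% in lesions and between 24.8 and 30.4% in CoW.

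Markers of cells that carry the receptors were measured in the same libraries. Of 13 macrophage markers, 12 were measured and none was at 0, and their summed level was 3495, 6216 and 12236 TPM in the lesions of animals 1, 2 and 3, against 2947, 1724 and 3057 TPM in CoW. Lyz2 alone made up most of these sums, with 2388, 4090 and 8680 TPM in lesions and 1722, 867 and 1898 TPM in CoW. The median log2 ratio of the 12 markers was -0.05, 1.07 and 1.28 in animals 1, 2 and 3, so animal 1 was near 0. Over 1.5-fold in all 3 animals, Cd68 and Lyz2 were higher and Cd163 was lower. The 9 neutrophil markers, again with none at 0, summed to 29.3, 419 and 71.5 TPM in lesions and 19.8, 25.3 and 30.7 TPM in CoW. S100a8 and S100a9 made up most of these sums, with 140 and 226 TPM in the lesion of animal 2. Mcemp1, Csf3r and Cxcr2 were likewise higher in the lesions of animals 2 and 3. The log2 ratios in animals 1, 2 and 3 were 1.24, 6.94 and 5.77 for Mcemp1 and 0.19, 3.71 and 2.47 for Csf3r. Cxcr2 had -0.56, 4.04 and 1.83. Mpo and Ngp went the other way in animals 2 and 3. Mpo had log2 ratios of 0.22, -1.15 and -2.0, at under 0.2 TPM in every library. Ngp had 0.77, -1.62 and -3.75, while Camp had 0.67, 1.8 and -1.28. The 6 microglia markers summed to 46.2, 163 and 162 TPM in lesions and 51.9, 28.1 and 52.8 TPM in CoW. Tmem119 alone made up 122 TPM in the lesion of animal 2 (log2 ratios 1.49, 3.78 and 3.31). Sall1 (-0.96, -0.58 and 0.15), P2ry12 (-0.33, 0.34 and 0.26) and Cx3cr1 (-0.98, 2.14 and 0.26) were lower in the lesion of animal 1. Gpr34 was near 0 there (0.02, 1.76 and 1.23). The median over the 5 microglia markers tested was -0.33, 1.76 and 0.26. The 9 markers of T and NK cells summed to 46.4, 38.2 and 173 TPM in lesions and 40.5, 18.6 and 28 TPM in CoW. Cd8a alone had 133 TPM in the lesion of animal 3. In that animal the log2 ratio was 4.32 for Cd8a, 1.15 for Cd3e, 1.17 for Cd3d and 1.04 for Cd3g. Ncr1 had -0.83 there, and the remaining markers were between 0.5 and 1.11. The part of these cells in the receptor values was not tested.

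The log2 ratio of each receptor was also set against the median log2 ratio of the 12 macrophage markers in the same animal. The difference was 0.55, 1.24 and 1.42 for LOC100911825 (mean 1.07, SE 0.26) and 0.92, 1.95 and 1.95 for LOC108348047 (mean 1.61, SE 0.34), above that median in every animal. For Fcgr1a it was 0.05, 0.46 and -0.17 (mean 0.12, SE 0.19). For Fcgr2b it was -0.15, -0.19 and -0.90 (mean -0.41, SE 0.25), and against the single marker Csf1r it was -0.14, 0.28 and -0.57 (mean -0.15, SE 0.24). Fcgr3a gave 0.42, -0.12 and -0.84 and Fcgrt gave 0.20, -1.69 and -1.0, without a common sign. Against Cd68, the single macrophage marker with the highest mean ratio, the mean difference was -0.01 (SE 0.42) for LOC108348047 and -0.55 (SE 0.34) for LOC100911825. The position of these rows thus depends on the marker used. For Fcgr2b the mean difference against Cd68 was -2.03 (SE 0.66). Its mean was below 0 against the median, Csf1r and Cd68, and only its size depended on the marker.

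Around the receptors, 7 lists of pathway genes were examined, with 85 genes listed, 74 measured and 62 tested. EdgeR called none of the 62 at an adjusted p under 0.05, and at an unadjusted p under 0.05 it had 18 higher and 7 lower (8.63% and 12% of all genes tested), while DESeq2 called 15 higher and 1 lower (5.38% and 6.37% of all genes tested). The median log2 ratio of the 62 genes was 0.03, 0.86 and 0.89 in animals 1, 2 and 3, beside -0.00, -0.05 and -0.04 over all genes tested. Animal 1 was thus near 0 for the pathway as a whole, as it was for Fcgr1a. Without animal 2, the median of the mean log2 ratios was 0.95 for the activating list, 0.41 for inhibitory signalling, 0.31 for phagocytosis, 0.06 for FcRn partners, 0.96 for regulators, -0.29 for ligands and -0.04 for other Fc receptors.

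With all 3 animals the list of the activating chain and kinases stood highest. Its median of the mean log2 ratios was 1.13, beside 1.04 for regulators and -0.03 over all genes. Without animal 3 it was 0.66, below the 0.7 of the regulators. Of its 14 genes, 6 were higher and 0 lower at an unadjusted edgeR p under 0.05 (8.63% and 12% of all genes), and DESeq2 called 5 higher (5.38% of all genes). Fcer1g, the common gamma chain that the activating receptors need at the cell surface, had 398, 589 and 1142 TPM in lesions and 289, 233 and 319 TPM in CoW. Every lesion was above every CoW, and the mean log2 ratio was 1.23 (SE 0.36, n = 3; edgeR adjusted p = 0.182, DESeq2 adjusted p = 0.00107).

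Lyn and Fgr, Src family kinases, had log2 ratios of 0.17, 1.58 and 1.73 and of 0.13, 2.88 and 2.30 in animals 1, 2 and 3. Syk, the kinase recruited to the phosphorylated chain, had -0.18, 1.32 and 2.34, and its mean of 1.16 (SE 0.73) passed neither test. Lcp2, the adaptor SLP-76, had 0.27, 1.73 and 1.90, and DESeq2 called it (adjusted p = 0.00882). Plcg2, phospholipase C gamma 2, had the lowest mean of the list, -0.08 (SE 0.13).

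The 8 genes of inhibitory signalling had a median of the mean log2 ratios of 0.56, and 1 was higher and 2 lower at an unadjusted edgeR p under 0.05 (8.63% and 12% of all genes), counts near that background. Dok2, an adaptor that restrains signalling below immune receptors, was over 1.5-fold in all 3 animals, with 8.86, 11.1 and 24.4 TPM in lesions and 6.27, 5.77 and 5.97 TPM in CoW (mean log2 ratio 1.18, SE 0.43; edgeR adjusted p = 0.203, DESeq2 adjusted p = 0.0115). Inpp5d, which encodes the SHIP1 phosphatase that Fcgr2b recruits, had log2 ratios of -0.15, 1.13 and 1.39 (edgeR adjusted p = 0.266). The genes lower at the unadjusted p were Inppl1 and Ptpn11, which encode the more widely expressed phosphatases SHIP2 and SHP2. Their mean log2 ratios were -0.39 (SE 0.13) and -0.43 (SE 0.13). The lowest mean was that of Cbl, a ubiquitin ligase, at -0.62 (SE 0.42).

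Of the 12 actin and lipid effectors of Fc gamma receptor phagocytosis, 4 were higher and 1 lower at an unadjusted edgeR p under 0.05 (8.63% and 12% of all genes), and DESeq2 called 3 higher (5.38% of all genes). Marcks, a membrane-bound actin regulator, was the gene over 1.5-fold in all 3 animals, with 25, 27.2 and 50.7 TPM in lesions and 16.9, 11.5 and 17.8 TPM in CoW (mean log2 ratio 1.13, SE 0.24; edgeR adjusted p = 0.174, DESeq2 adjusted p = 0.00026). Myo1f, a myosin of leukocytes, had the highest mean log2 ratio at 1.35 (SE 0.65), and Elmo1, a scaffold of Rac activation, the lowest at -0.74 (SE 0.27). Of the transcription factors and cytokines known to set Fc gamma receptor levels, 7 of 12 were tested, and 5 were higher at the unadjusted p in edgeR (8.63% of all genes) and called by DESeq2 (5.38% of all genes). Spi1, which encodes the myeloid factor PU.1, had 22.1, 44.6 and 77.6 TPM in lesions and 22.4, 12.4 and 19.9 TPM in CoW. The lesion of animal 1 was thus slightly below its own CoW in TPM. By normalised counts that lesion was 1.07-fold its CoW, and the log2 ratios of Spi1 were 0.1, 1.78 and 1.96 in animals 1, 2 and 3. C5ar1, the receptor for complement C5a, had the highest mean log2 ratio at 1.90 (SE 0.75). Ifng, Il4, Il10, Il13 and Csf2 had too few counts to be tested.

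**Figure D4:**
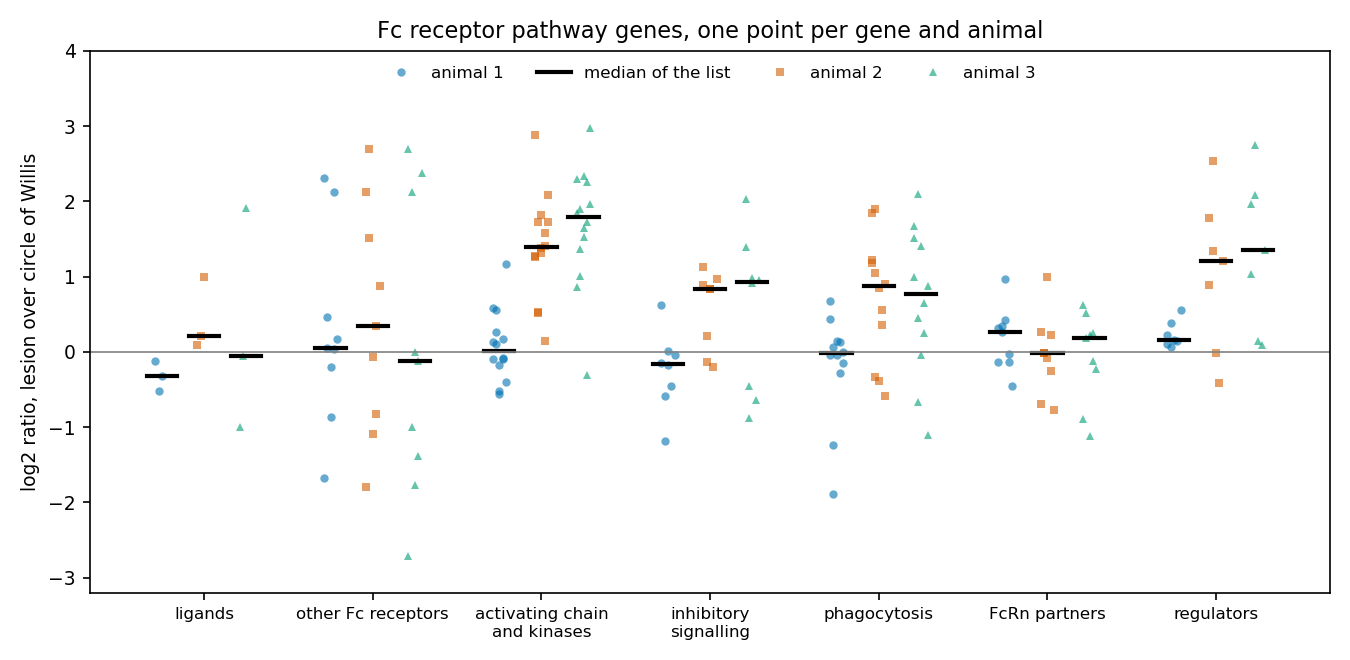
Log2 ratio of lesion over CoW (vertical axis) for each tested gene of the 7 pathway lists, with a point per gene and animal and a black bar at the median of the list in that animal. The activating list has medians of 0.01, 1.39 and 1.79 in animals 1, 2 and 3, and the list of FcRn partners has 0.26, -0.02 and 0.19.

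No partner of FcRn passed the adjusted threshold of edgeR or DESeq2. Of 9 genes tested, 0 were higher and 2 lower at an unadjusted edgeR p under 0.05 (8.63% and 12% of all genes), and the median of the mean log2 ratios was 0.14. B2m, the light chain of FcRn and of MHC class I molecules, had 1335, 1867 and 2347 TPM in lesions and 1164, 1483 and 1531 TPM in CoW. Its ranges overlapped, and it had the highest mean log2 ratio of the list at 0.40 (SE 0.11; edgeR adjusted p = 0.295). The lower genes were Rab11fip1 and Ehd1, which serve endosomal recycling, with mean log2 ratios of -0.49 (SE 0.16) and -0.57 (SE 0.23). The endothelial markers, from a cell type that also carries FcRn, summed over 7 genes to 611, 321 and 320 TPM in lesions and 689, 701 and 788 TPM in CoW. Cldn5 alone made up 373, 152 and 138 TPM of these sums in lesions and 404, 370 and 502 TPM in CoW. Cdh5, Vwf, Tie1 and Tek were also lower in the lesions of animals 2 and 3. Emcn had log2 ratios of 0.60, -0.21 and 1.67 in animals 1, 2 and 3, and Flt1 had -0.48, 0.02 and -0.31. The part of endothelial cells in the Fcgrt values was not tested.

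Few ligand genes could be tested in these arteries. Of 16 genes for IgG, other immunoglobulin chains and pentraxins, 6 were matched by symbol, and 3 of these passed the filter on low counts. The level of the genes not matched is unknown here. The highest mean log2 ratio was that of Ptx3, the long pentraxin, which had 0.314, 2.41 and 3.11 TPM in lesions and 0.432, 1.14 and 0.813 TPM in CoW (mean log2 ratio 0.86, SE 0.65; edgeR adjusted p = 0.379). The lowest was that of Igh-6, an immunoglobulin heavy chain row, at -0.34 (SE 0.33). Ighg had 0, 50 and 1 counts in lesions and 5, 64 and 0 counts in CoW, and was not tested. Summed over 8 genes, B and plasma cell markers were 13.8, 22.5 and 10.1 TPM in lesions and 11.7, 8.52 and 10.3 TPM in CoW. IgG protein reaches tissue from the blood, so that these values say nothing of how much ligand was present.

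Among Fc receptors of other classes, 9 of 13 were tested. Fcmr, the receptor for IgM, had 9.19, 5.58 and 3.01 TPM in lesions and 18.2, 11.4 and 10.3 TPM in CoW. Each lesion was below every CoW, and the ratio within an animal was 0.55-fold, 0.467-fold and 0.292-fold. Fcmr was thus over 1.5-fold lower in all 3 animals, and DESeq2 called it lower (mean log2 ratio -1.24, SE 0.27; edgeR adjusted p = 0.178, DESeq2 adjusted p = 0.00188). Fcrl2, of the Fc receptor-like family, had 4.1, 30.7 and 48.7 TPM in lesions and 4.3, 4.53 and 11.1 TPM in CoW, and DESeq2 called it higher (adjusted p = 0.0143). Fcrl1, a B cell member of that family, and Ms4a2, the beta chain of the IgE receptor of mast cells, were over 1.5-fold higher and lower in all 3 animals. Both rest on few reads. Fcrl1 had 22, 38 and 18 counts in lesions and 3, 7 and 1 in CoW, and Ms4a2 had 2, 3 and 2 counts in lesions and 11, 15 and 24 in CoW. Summed over 6 genes, mast cell markers were 21.5, 17.9 and 15.9 TPM in lesions and 34.4, 36.7 and 23.1 TPM in CoW. Kit, which other cells also carry, made up nearly all of these sums, with 21.1, 16.7 and 14.9 TPM in lesions and 33.2, 36 and 19 TPM in CoW, and Tpsab1, a defining tryptase, was at 0 in the lesion of animal 1.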

How the data were processed

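The authors mapped the paired-end reads of 6 libraries in CLC genomics workbench, against the Rnor6 genome. CASAVA is named in the submitters' processing notes. The authors deposited a raw count per gene and library, and the TPM and RPKM computed from it. They also deposited a scaled CPM, read as a signal and not used, and their own comparisons (fold changes and p-values), not used here. The counts were tested with edgeR 4.0.16 in R 4.3.3, with TMM factors, filterByExpr (15367 genes kept) and the animal as a block. P-values were adjusted by Benjamini-Hochberg. DESeq2 1.42.0 and limma-voom (limma 3.58.1) were alternatives. Log2 ratios within an animal came from TMM-normalised CPM with a prior count of 2, and their SE from 3 animals. Levels are TPM, since TPM accounts for gene length.

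Libraries were paired by the animal that the labels name. The deviations of the libraries of animals 1, 2 and 3 from their group means correlated across genes at 0.389, 0.3 and 0.069. Depth was 65823027 to 70705938 counts, and the 4 genes had 791 to 31081 counts per library. The steps were tested on simulated data. Named genes were the receptors, the pathway genes over 1.5-fold one way in all animals, and the highest and lowest of each list. Fcer1g, Lyn, Fgr, Syk, Lcp2, Inpp5d, Inppl1, Ptpn11, Spi1, Fcrl2, Rab11fip1, Ehd1 and genes with few counts were added for their role or their p, after their values were seen. The balance was planned with Fcgr2a and was run with Fcgr3a alone. Members and lists were chosen with earlier results of these data known. Some single genes are not reported here.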

Additional observations from a re-analysis of the deposited data

How the results depend on the processing

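DESeq2 was the alternative that changed calls. Scaled by its size factors, the mean log2 ratios within animals were 1.86 for LOC100911825 (DESeq2 adjusted p = 0.00066) and 2.40 for LOC108348047 (DESeq2 adjusted p = 2.1e-05). They are not the fold changes that DESeq2 fitted. DESeq2 called 2 receptor rows, 15 pathway genes and 826 of all genes higher. It called 1 pathway gene and 979 of all genes lower, where edgeR with the animal as a block called 0 in either direction. Without the block for the pairing by animal, edgeR called 1 of all genes lower and no receptor row, and no receptor call changed.

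Without each animal in turn, the log2 ratio ranged from 0.55 to 1.35 for Fcgr1a, 0.08 to 0.66 for Fcgr2b, 0.40 to 0.73 for Fcgr3a, 1.40 to 2.53 for LOC100911825 and 1.94 to 3.15 for LOC108348047. For Fcgrt it ranged from -0.23 to 0.21, and the change of sign came without animal 2. The genes over 1.5-fold in all animals left ranged from 0 to 1 of the 4 receptors, from 1 to 2 receptor III rows, from 587 to 1646 of all genes higher and from 1060 to 1922 lower, where all 3 animals gave 0, 1, 423 and 847. A rule that must hold in fewer animals passes more genes. Without animal 1 the median of the activating list was 1.70, and without animal 3 it was 0.66. At 1.2-fold the rule gave 1 receptor, 2 receptor III rows, and 1235 higher and 1906 lower genes, and at 2-fold it gave 0 receptor III rows, and 190 higher and 299 lower genes.

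Limma-voom, other scalings, filters and the removal of mitochondrially encoded genes kept the direction and the side of the threshold of every receptor ratio. The balance with Fcgr2a was not run. With 3 animals the balance could not reach a p under 0.25.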

Other observations

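Over the 6 libraries, genes among the 5 most like each receptor by Pearson's r of log2 normalised CPM were taken from 13580 genes with a mean CPM of at least 1. These values are a description over libraries that share animals, and the highest of so many correlations is high by selection. For Fcgr1a they were Sox10 (r = 0.997), Fgr (0.996), Tlr2 (0.994), Cdc6 (0.994) and RGD1309104 (0.994). For LOC100911825 they were Csrnp2 (0.998), Lyn (0.998), Bin2 (0.997), LOC108348047 (0.997) and Smap2 (0.997), and for LOC108348047 Rhog (0.998), Tgfb1 (0.997), LOC100911825 (0.997), St6galnac4 (0.996) and Lpcat1 (0.996). For Fcgr2b they included Dusp7 (0.997), Abhd15 (0.986), Paqr4 (0.985) and Cacfd1 (0.984). Fcgr3a was most like Lsm4 (0.995), Rpl13a_1 (0.993), Fbxl12 (0.991), Rpl35 (0.99) and Dohh (0.986), and Fcgrt like Glyctk (0.988), Adora2b (0.985), Sts (0.983), Wdr25 (0.981) and Rinl (0.967). Fcgr1a and Fcgr2b, which lie on different chromosomes, had an r of 0.931 with each other, whereas Fcgr2b and Fcgr3a, whose spans overlap, had 0.489. Fcgr1a and Fcgrt had -0.63.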
